A study of Mus musculus with 12 samples.

Results

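The identity genes of retinal ganglion cells were followed in bulk RNA-seq of whole mouse retinas. They were 9 genes chosen by name (Pou4f1, Pou4f2, Rbpms, Slc17a6, Nefl, Nefm, Nefh, Thy1 and Sncg), and each was found, as the same transcript, in both expression tables of 25124 genes. All animals were wild type (C57BL/6 in the text of the study) and had intraocular pressure (IOP) raised to 30 mmHg for 1 h in the treated eye, while the other eye served as the control. Hence every control retina came from an animal whose other eye had been treated. In the single-IOP table, retinas were taken on day 2 from animals of 3 or 18 months and formed 4 groups, named by age and eye (3mo control and 3mo IOP, then 18mo control and 18mo IOP). In the repeated-IOP table, eyes of animals labelled 3 months old were treated 4 times, 2 weeks apart, and taken on day 2 after the last elevation (4xIOP), beside their untreated partners (4xIOP control). Each of the 6 groups held 2 libraries. The labels do not say which libraries came from the same animal, so the p-values below measure only the spread between these libraries.

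Retinal ganglion cells are the only neurons that carry signals from the retina to the brain, through long axons that form the optic nerve. They are a small minority of retinal cells and are the cells lost in glaucoma, for which age and raised IOP are known risk factors. Their identity is held by POU-domain transcription factors, and their RNA is rich in messages for glutamate release, for the neurofilament scaffold of the axon and for surface and synuclein proteins. In RNA from a whole retina, fewer ganglion cells and less of a message in each cell cannot be told apart.

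The values were FPKM (fragments scaled to the length of the transcript and to the mapped tags of the library), so that levels of genes of different length can be set side by side within a table. Libraries held between 39766258 and 59455042 mapped tags, and the members' reads ranged from 4 for Pou4f2 in a single 18mo IOP library to 16183 for Nefl. The 18mo libraries differed among themselves. In log2(FPKM + 0.5), centred on each gene's mean over the 8 single-IOP libraries, the 9 genes together lay at -1.59 in 18mo control 1 and -1.66 in 18mo IOP 2, against -0.50 in 18mo control 2, -0.44 in 18mo IOP 1, and between 0.81 and 1.38 in the 4 libraries from 3-month-old animals. The same 18mo control 1 and 18mo IOP 2 libraries were low in genes of other inner retinal neurons, and the age calls are therefore also given without the 1 of these libraries that enters each comparison. On that scale 18mo IOP 2 also lay below 18mo IOP 1 in cone markers (-0.87 and 0.03) and microglia markers (0.12 and 1.60). It lay above 18mo IOP 1 in rod markers (-0.35 and -0.63) and astrocyte markers (1.16 and 0.60).

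Promoter sequence of RefSeq (build GRCm38.p6) was at hand for 4 of the 9 genes. The 250 bases before the start of the counted transcript are printed for Slc17a6 and for both transcription factors, because POU4F factors bind DNA themselves and all 3 genes were lowest in the same 18mo libraries. So was Sncg, whose window is not printed because 120 of its bases lie in an exon in GENCODE M21. In the first sequence the capitals mark the POU4F core ATAATTAAT, found on the reverse strand 83 bases before the start. In the second they mark the E-box CAGCTG, the kind of site bound by basic helix-loop-helix factors, 118 bases before the start. The third held neither word. RefSeq also gives Slc17a6 an upstream start, at 51621830, and the window before that start held neither word. The printed Slc17a6 window lies within the gene as annotated in GENCODE M21, which starts at 51622006.
Slc17a6, chr7:51624387-51624636, plus strand: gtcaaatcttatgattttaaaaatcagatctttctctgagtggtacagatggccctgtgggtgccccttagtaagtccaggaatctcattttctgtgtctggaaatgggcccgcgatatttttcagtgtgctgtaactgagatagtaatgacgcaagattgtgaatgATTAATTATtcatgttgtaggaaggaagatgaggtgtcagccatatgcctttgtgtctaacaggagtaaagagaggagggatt
Pou4f1, chr14:104468000-104468249, minus strand: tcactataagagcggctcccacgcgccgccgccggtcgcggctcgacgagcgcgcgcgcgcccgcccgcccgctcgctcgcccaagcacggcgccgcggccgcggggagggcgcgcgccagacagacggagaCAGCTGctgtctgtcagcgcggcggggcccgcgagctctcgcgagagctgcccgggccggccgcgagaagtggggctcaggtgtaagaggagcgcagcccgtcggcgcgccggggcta
Pou4f2, chr8:78436648-78436897, minus strand: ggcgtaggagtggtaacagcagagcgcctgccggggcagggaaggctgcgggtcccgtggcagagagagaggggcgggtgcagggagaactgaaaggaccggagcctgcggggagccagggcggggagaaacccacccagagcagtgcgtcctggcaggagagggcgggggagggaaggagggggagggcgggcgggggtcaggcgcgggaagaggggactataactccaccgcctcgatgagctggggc

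The search covered both strands, and no match of 1 motif overlapped a match of another. ATAATTAAT was in 0.259% of 32851 promoter windows of that length, CAGCTG in 13.0%, and the TATA box word TATAAA, in 12.4% of windows, was in none of the 3 sequences. The Pou4f1 and Pou4f2 windows were rich in G and C (78.0% and 70.8%), whereas the Slc17a6 window held 41.2%, against a median of 52.4% over all windows. A match is a description of the letters and was not tested as a binding site.

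In untreated eyes, all 9 ganglion cell genes were lower at 18 months than at 3 months, with no overlap between the groups. The difference was largest for Sncg, 26.9-fold between the group means, for Nefl, 7.81-fold, and for Slc17a6, 6.89-fold, whereas the other 6 lay between 2.24-fold and 3.38-fold. In limma with Benjamini-Hochberg adjustment, 6 of 9 were called lower and 0 higher, where a call needed adjusted p no higher than 0.05 together with a difference of 1 or more on the log2 scale. Of all 13731 genes tested, 11.6% were called lower and 11.6% higher (1590 and 1595 genes). Median-of-ratios size factors, which took the median log2 fold change of all genes from 0.16 to 0.01, shifted that split to 1968 lower and 1059 higher, and all 9 members stayed below 0. Lower values without overlap were found for 32.8% of all genes, so the count of 9 among 9 reads against that share. The median log2 fold change of the 9 genes was -1.32, against 0.16 for all tested genes. With each library left out in turn, the median of the 9 ranged from -1.82 to -0.83. All 9 passed the filter of a mean of 0.5 FPKM over the 8 libraries, although Pou4f2 did so only through the 3-month libraries (its mean was 0.380 FPKM at 18 months).

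**Figure D1:**
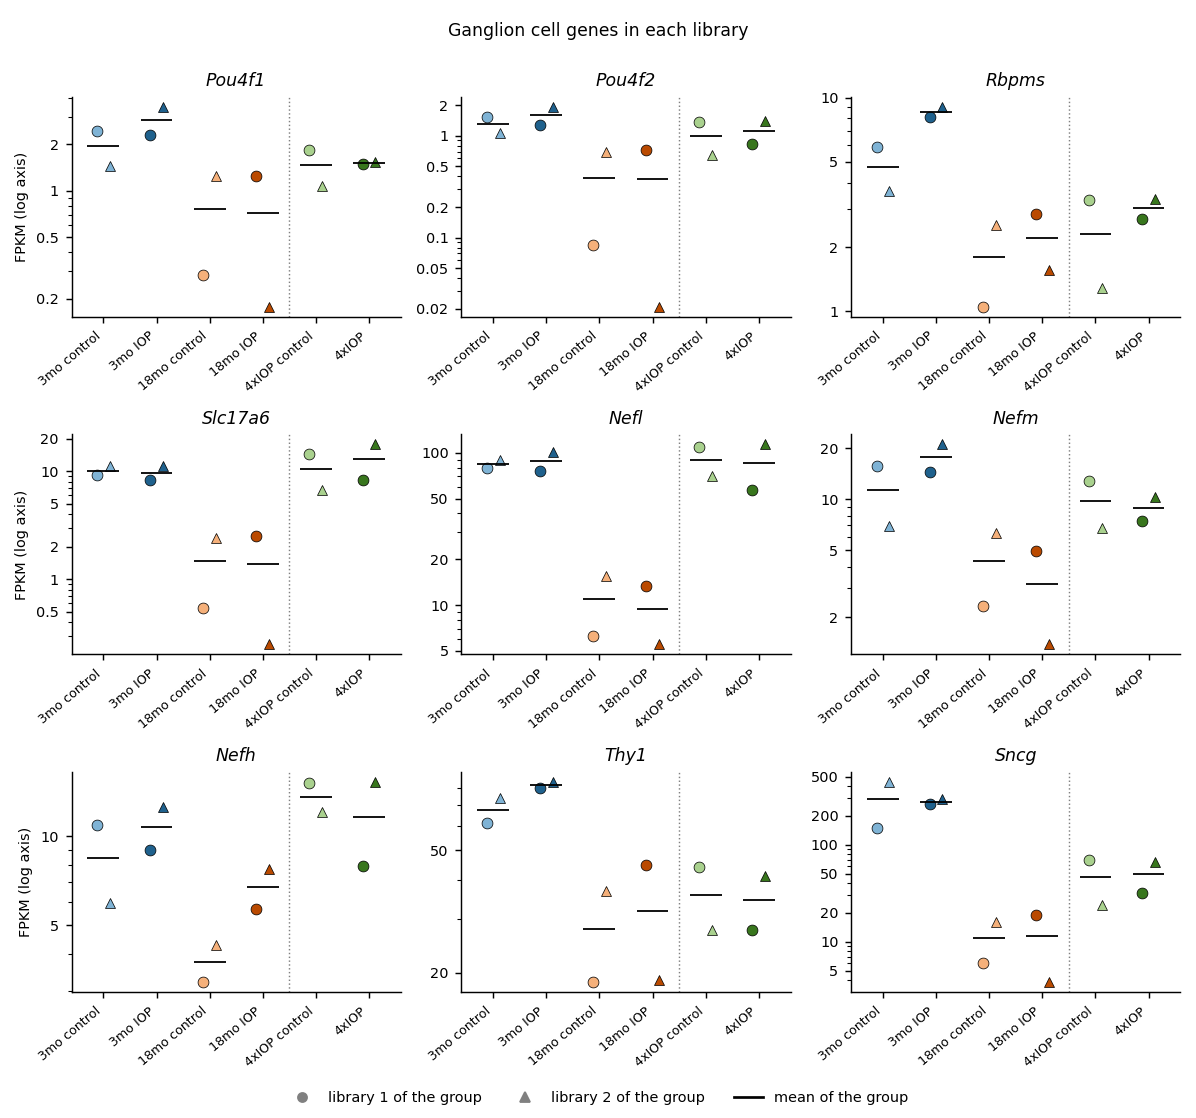
FPKM of the 9 genes on log axes (vertical) in each library of the 6 groups (horizontal); circles and triangles are libraries 1 and 2 of a group, short lines are group means, and the dotted line separates the 2 tables. In every panel the 18mo control points lie below the 3mo control points, and in 8 of 9 panels 18mo IOP 2 lies below 18mo IOP 1.

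Pou4f1 and Pou4f2 encode the homeodomain transcription factors Brn3a and Brn3b, of which Brn3b acts first in ganglion cell differentiation and Brn3a is widely used to count the mature cells. Pou4f1 (NM_011143, minus strand of chromosome 14, 104462325 to 104467999) was at 2.44 and 1.44 FPKM in the 3mo controls, 2.28 and 3.48 in 3mo IOP, 0.283 and 1.25 in 18mo control, and 1.25 and 0.177 in 18mo IOP. Pou4f2 (NM_138944, minus strand of chromosome 8, 78433009 to 78436647) was at 1.54 and 1.07 FPKM in the 3mo controls, 1.29 and 1.92 in 3mo IOP, 0.085 and 0.687 in 18mo control, and 0.728 and 0.021 in 18mo IOP. For both genes the 18mo control 1 and 18mo IOP 2 libraries were several times below the other 18mo libraries, and the Pou4f2 values there rest on 12 and 4 reads, against a limit of measurement set at 3 reads. Neither factor was called in untreated eyes (Pou4f1 log2 fold change -1.03 ± 0.52 SE, adjusted p = 0.135, and Pou4f2 -1.10 ± 0.47, adjusted p = 0.0843). The 95% interval of the Pou4f1 difference ran from -2.22 to 0.17, so that a large fall and no change were both within it.

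Rbpms encodes an RNA-binding protein that in the retina marks essentially all ganglion cells, and Slc17a6 encodes VGLUT2, the transporter that loads glutamate into their synaptic vesicles. Rbpms (NM_001042674, minus strand of chromosome 8, 33782644 to 33929863) was at 5.85 and 3.67 FPKM in the 3mo controls, 8.10 and 9.05 in 3mo IOP, 1.05 and 2.53 in 18mo control, and 2.84 and 1.55 in 18mo IOP. Its gene holds the antisense gene Gm26632 and, on its own strand within an intron, Gm26978, and the counting used strand and exons. Slc17a6 (NM_001355150, plus strand of chromosome 7, 51624637 to 51671126) was at 9.19 and 11.1 FPKM in the 3mo controls, 8.21 and 11.2 in 3mo IOP, 0.541 and 2.40 in 18mo control, and 2.52 and 0.250 in 18mo IOP. The 3mo libraries of Slc17a6 lay close together, and its highest 18mo value was less than the lowest 3mo value. Both genes were called lower in 18mo control, Slc17a6 by a log2 fold change of -2.61 ± 0.65 SE (adjusted p = 0.0153) and Rbpms by -1.25 ± 0.37 (adjusted p = 0.0272).

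The neurofilament light, medium and heavy chains, encoded by Nefl, Nefm and Nefh, assemble into the filaments that set the calibre of large axons. Nefl (NM_010910, plus strand of chromosome 14, 68083863 to 68089096) was at 80.0 and 89.9 FPKM in the 3mo controls, 76.1 and 101 in 3mo IOP, 6.30 and 15.5 in 18mo control, and 13.4 and 5.51 in 18mo IOP. Every 18mo library was thus at least several-fold below every 3mo library. Nefm (NM_008691, minus strand of chromosome 14, 68119545 to 68125004) was at 15.7 and 6.90 FPKM in the 3mo controls, 14.5 and 21.045 in 3mo IOP, 2.34 and 6.30 in 18mo control, and 4.94 and 1.39 in 18mo IOP. Nefh (NM_010904, minus strand of chromosome 11, 4938756 to 4948064) was at 10.9 and 5.94 FPKM in the 3mo controls, 8.98 and 12.5 in 3mo IOP, 3.22 and 4.30 in 18mo control, and 5.70 and 7.74 in 18mo IOP. The 3mo and 18mo control values of Nefm came close to each other (6.90 and 6.30 FPKM), and Nefh had the smallest ratio between its means over the 3mo and the 18mo libraries (1.83). In untreated eyes Nefl fell by 3.03 ± 0.47 SE on the log2 scale (adjusted p = 0.00543) and Nefh by 1.02 ± 0.31 (adjusted p = 0.0293), while Nefm, at -1.32 ± 0.60, did not pass (adjusted p = 0.103). The annotated Nefm gene spans Nefl on the opposite strand in GENCODE M21, and the stranded counting keeps their reads apart.

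Thy1 encodes a glycosylphosphatidylinositol-anchored surface protein long used to label ganglion cells, and Sncg encodes gamma-synuclein, a small protein enriched in their cell bodies and axons. Thy1 (NM_009382, plus strand of chromosome 9, 44043384 to 44048579) was at 61.2 and 74.0 FPKM in the 3mo controls, 79.8 and 83.4 in 3mo IOP, 18.7 and 37.0 in 18mo control, and 44.7 and 19.0 in 18mo IOP. Sncg (NM_011430, minus strand of chromosome 14, 34370274 to 34374669) was at 150.5 and 443 FPKM in the 3mo controls, 264 and 293 in 3mo IOP, 5.98 and 16.1 in 18mo control, and 18.9 and 3.85 in 18mo IOP. Sncg had the highest level of the 9 genes in 3mo control and 3mo IOP, Thy1 had it in both 18mo groups, and Nefl in 4xIOP control and 4xIOP. In untreated eyes the log2 fold change was -4.64 ± 0.76 SE for Sncg (adjusted p = 0.00574) and -1.34 ± 0.42 for Thy1 (adjusted p = 0.0328). Sncg has the shortest counted transcript (725 bases), and with the trend of values with transcript length removed from each library its fall was 3.74 on the log2 scale (adjusted p = 0.00438).

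The calls in untreated eyes depended in part on single libraries, as did those over all genes, of which 1590 were called lower with all libraries, 789 without 18mo control 1, 566 without 18mo control 2, 2093 without 3mo control 1 and 779 without 3mo control 2. Without 18mo control 1 the members called fell from 6 to 2, and Slc17a6 (log2 fold change -1.87, adjusted p = 0.0866), Rbpms (-0.76, adjusted p = 0.165), Thy1 (-0.86, adjusted p = 0.194) and Nefh (-0.83, adjusted p = 0.1496) no longer passed. Without 3mo control 1 they were 3, as Rbpms (-0.94), Nefh (-0.61) and Thy1 (-1.47) missed the threshold. Without 3mo control 2, Slc17a6 (-2.48) and Thy1 (-1.20) missed it, and without 18mo control 2, Nefh (-1.20) and Thy1 (-1.82). Nefl and Sncg were called without any single one of the 4 libraries, with log2 fold changes from -3.65 to -2.42 for Nefl and from -5.42 to -3.86 for Sncg.

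The age comparison was also made between libraries from eyes whose IOP had been raised. These share no library with the first comparison but are the partner eyes of such controls, and may come from the same animals. All 9 genes were again lower at 18 months without overlap (34.5% of all genes were lower without overlap), and 8 of 9 were called lower by limma (7 without Pou4f2, which was tested only through the 3-month libraries), against 11.6% of all genes called lower and 10.2% called higher. The fall was 24.6-fold for Sncg, 9.38-fold for Nefl and 7.01-fold for Slc17a6 between group means. Pou4f1 (log2 fold change -1.61 ± 0.52 SE, adjusted p = 0.0382), Pou4f2 (-1.38 ± 0.47, adjusted p = 0.0446) and Nefm (-2.49 ± 0.60, adjusted p = 0.0156), which had not passed in untreated eyes, were called here. The call of Pou4f2 was lost with a pseudocount of 0.1 (adjusted p = 0.0715), with a pseudocount of 1 (log2 fold change -0.96), with no filter on low values (adjusted p = 0.0827), with voom (adjusted p = 0.0519) and with only the 2 groups compared (adjusted p = 0.0586). That of Pou4f1 was lost with a pseudocount of 0.1 (adjusted p = 0.0535) and with no filter (adjusted p = 0.0799). Nefh was not (-0.64 ± 0.31, adjusted p = 0.127). Whether these differences between treated and untreated eyes exceed the error is the interaction given below.

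Here too the low library mattered. Without 18mo IOP 2, only Sncg, Nefl and Rbpms were called, while Slc17a6 (log2 fold change -1.74, adjusted p = 0.0541), Nefm (-1.72, adjusted p = 0.0719), Thy1 (-0.86, adjusted p = 0.128), Pou4f1 (-0.93, adjusted p = 0.186) and Pou4f2 (-0.76, adjusted p = 0.215) missed the threshold. Without either 3mo IOP library 2 of 9 were called, Nefl and Sncg. Over all genes 1593 were called lower with all libraries, 1142 without 18mo IOP 2, 267 without 3mo IOP 1 and 321 without 3mo IOP 2. The median log2 fold change of the 9 genes was -1.79, against 0.09 over all tested genes. With each library left out in turn, the median of the 9 ranged from -2.30 to -1.44.

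**Figure D2:**
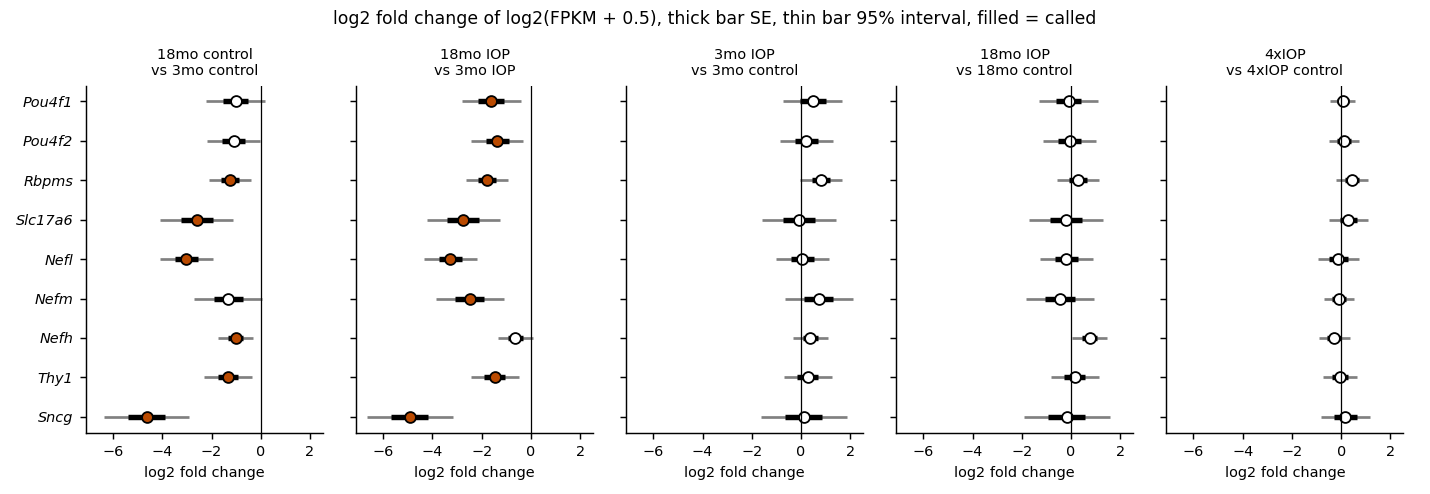
log2 fold change of the 9 genes (vertical) in the 5 comparisons (panels), on the log2(FPKM + 0.5) scale; points are estimates, filled where called, thick bars are standard errors and thin bars are 95% intervals. The age panels lie left of 0 for all 9 genes (6 and 8 of them called), and in the 3 IOP panels no gene is called.

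A single IOP elevation to 30 mmHg was followed by no called change of any of the 9 genes on day 2, at either age. At 3 months 0.568% of all genes were called higher and 0.00728% lower, whereas 0 of 9 ganglion cell genes were called, 0 had an unadjusted p under 0.05, and voom on the recovered reads also called 0. Their log2 fold changes ran from -0.07 (Slc17a6) to 0.82 (Rbpms), with a median of 0.28 against 0.13 over all tested genes. Rbpms was the member with the smallest p (adjusted p = 0.621), and its treated values, 8.10 and 9.05 FPKM, lay above its control values, 5.85 and 3.67. Thy1, at 79.8 and 83.4 against 61.2 and 74.0 FPKM, was the other gene without overlap (log2 fold change 0.28, adjusted p = 0.990), and 28.6% of all genes were higher without overlap. Intervals were wide: for Slc17a6 the 95% interval of the difference ran from -1.57 to 1.43, and for Sncg from -1.63 to 1.85, so falls to well below the control level would not have been detectable.

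At 18 months 0.117% of all genes were called higher after IOP and 0.00728% were called lower, and 0 of 9 members were called by limma or by voom. The only unadjusted p under 0.05 was that of Nefh, whose treated retinas (5.70 and 7.74 FPKM) lay above the controls (3.22 and 4.30), with a log2 fold change of 0.76 (95% interval 0.04 to 1.47, adjusted p = 0.478), where 36.5% of all genes were higher without overlap. The other 8 genes overlapped between the groups, and their log2 fold changes lay between -0.46 (Nefm) and 0.27 (Rbpms). In each of these 8 genes 18mo control 2 and 18mo IOP 1 were the high libraries and 18mo control 1 and 18mo IOP 2 the low ones, so the sign of the difference was set by which libraries were used. Without 18mo control 1 or 18mo IOP 1 the median of the 9 genes was negative, down to -0.79, and without 18mo control 2 or 18mo IOP 2 it was positive, up to 0.58. The interaction of IOP with age was tested directly in limma: 0 of 9 genes passed, as did 0% of all genes, 0 of the 9 had an unadjusted p under 0.05, and the estimates ran from -1.17 (Nefm, 95% interval -3.12 to 0.78) to 0.38 (Nefh).

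After 4 elevations the group means of the ganglion cell genes were 0.85 (Nefh) to 1.32 (Rbpms) times those of the untreated eyes. In this comparison 5.45% of all genes were called higher and 0.693% lower. Of the 9 genes 0 were called, 0 had an unadjusted p under 0.05 and 0 were called by voom, and all 9 overlapped between the groups. Sncg was at 69.7 and 24.1 FPKM in 4xIOP control and at 32.0 and 67.1 in 4xIOP. Nefl was at 109 and 70.1 FPKM in the controls and at 57.2 and 113 after treatment. Slc17a6 was at 14.3 and 6.71 FPKM in the controls and at 8.35 and 17.6 after treatment. In these 3 genes control 1 and 4xIOP 2 were high and control 2 and 4xIOP 1 were low, and the same held for the mean of the 9 genes (0.38 and 0.35, against -0.44 and -0.29 on the log2 scale).

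In the remaining 6 genes too, control 1 and 4xIOP 2 were the higher libraries. Pou4f1 ranged from 1.07 to 1.84 FPKM, Pou4f2 from 0.649 to 1.403 and Rbpms from 1.28 to 3.36 over the 4 libraries. Nefm ranged from 6.76 to 12.8 FPKM, Nefh from 7.95 to 15.2 and Thy1 from 27.5 to 44.3. The log2 fold changes of the 9 genes lay between -0.28 (Nefh) and 0.43 (Rbpms), with a median of 0.06 against 0.10 over all genes, and the smallest adjusted p was 0.637. The 95% interval of the difference was -0.45 to 0.58 for Pou4f1 and -0.95 to 0.71 for Nefl. It was -0.82 to 1.17 for Sncg and -0.49 to 1.08 for Slc17a6, so the lack of a call does not show that levels were unchanged.

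The ratios among the neurofilament genes differed between libraries, a description with no test. In the 4 libraries from 3-month-old animals the FPKM ratio of Nefh to Nefl was 0.136, 0.0660, 0.118 and 0.124, whereas at 18 months it was 0.511 and 0.278 in the controls and 0.427 and 1.41 in the treated eyes. In 18mo IOP 2, where Nefl, Nefm, Pou4f1, Pou4f2, Slc17a6 and Sncg were at their lowest, Nefh was at its highest of the 18mo libraries. Over the 8 single-IOP libraries, Pearson's r between a member and the mean of the other 8 was 0.669 for Nefh and between 0.941 and 0.982 for the rest, a description over libraries that share groups. The ratio of Nefm to Nefl was 0.0768 to 0.208 at 3 months and 0.252 to 0.407 at 18 months. In the repeated-IOP table both ratios varied little, from 0.134 to 0.172 for Nefh and from 0.0911 to 0.131 for Nefm.

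**Figure D3:**
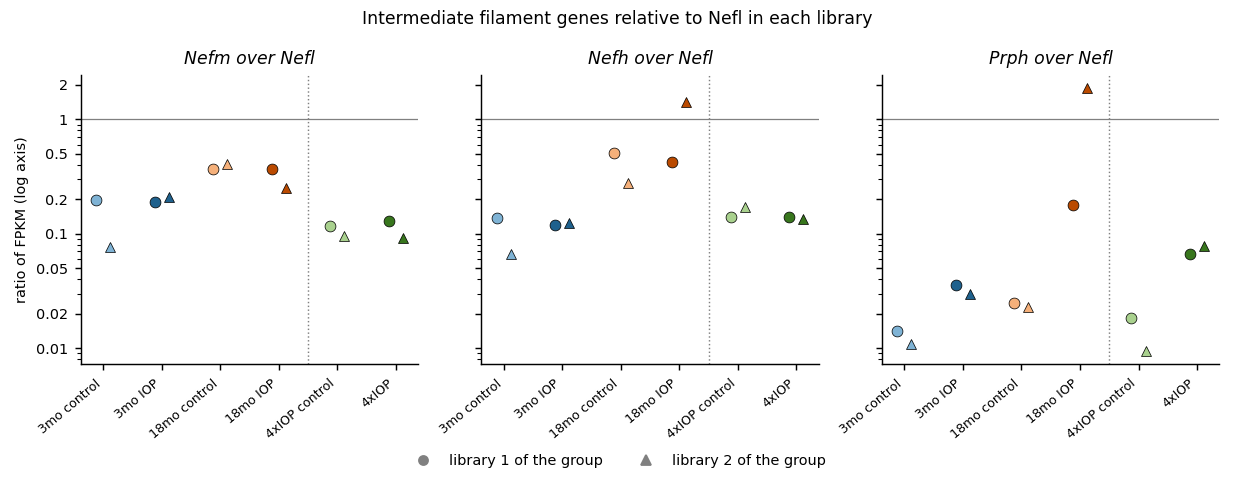
FPKM of Nefm, Nefh and Prph divided by that of Nefl (log axis) in each library (groups on the horizontal axis; circles and triangles are libraries 1 and 2; the dotted line separates the tables). Nefh over Nefl reaches 1.41 and Prph over Nefl 1.89 in 18mo IOP 2, while the control libraries lie at or below 0.511 in every panel.

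Close relatives of the 9 genes were read beside them. Rbpms2, the paralog of Rbpms, was called lower in 18mo control (log2 fold change -1.43, adjusted p = 0.0303) and in 18mo IOP (-1.88, adjusted p = 0.0143), and 0 paralogs were called higher with age. Without the low 18mo library its calls were lost (-0.97, adjusted p = 0.171 without 18mo control 1, and -1.21, adjusted p = 0.0524 without 18mo IOP 2). Sncb, the beta-synuclein gene, was at 156 and 133 FPKM in 3mo control and at 202 and 288 in 18mo control. Slc17a7, which encodes VGLUT1, the transporter of photoreceptors and bipolar cells, was at 397 and 284 FPKM in 3mo control and at 468 and 493 in 18mo control, with no call (adjusted p = 0.126). Peripherin (Prph), an intermediate filament protein of neurons, was the only paralog called after IOP, and only after 4 elevations. At 3 months it was at 1.12 and 0.977 FPKM in untreated eyes and at 2.701 and 2.99 in treated eyes (log2 fold change 1.11, adjusted p = 0.645). At 18 months it was at 0.156 and 0.352 FPKM in controls and at 2.40 and 10.4 after IOP (2.91, adjusted p = 0.0985). In the repeated-IOP table it was at 2.02 and 0.658 FPKM in controls and at 3.79 and 8.90 after treatment, where it was called higher (1.89, adjusted p = 0.00497).

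A wider list of 23 ganglion cell genes was read beside the 9. In untreated eyes 8 of its 21 tested genes were called lower at 18 months and 0 higher, with a median log2 fold change of -0.94, and in treated eyes 11 were called lower and 0 higher (median -1.15), Eomes and Opn4 among them having passed the filter only through the 3-month libraries. Nrn1, which encodes the axon growth protein neuritin, fell by 3.59 on the log2 scale in untreated eyes (adjusted p = 0.0073), from 27.6 and 47.2 FPKM to 1.69 and 3.71. Stmn2, a tubulin-binding axon protein, fell by 3.18 (adjusted p = 0.00917). Spp1, osteopontin, which marks the alpha type of ganglion cells, fell by 3.15 (adjusted p = 0.00930), and Cartpt, a neuropeptide precursor found in direction-selective cells, fell by 2.82 on that scale (adjusted p = 0.0204). In treated eyes Nrn1 and Stmn2 were among the 4 of smallest p, beside Tubb3 (-2.10, adjusted p = 0.00857), a neuronal tubulin, and Uchl1 (-2.32, adjusted p = 0.0135), a neuronal ubiquitin hydrolase. Without 18mo control 1 only Nrn1 (-3.12) and Spp1 (-3.82) of the 21 were called in untreated eyes. In treated eyes without 18mo IOP 2, only Nrn1 (-2.69), Stmn2 (-2.34), Uchl1 (-1.48), Tubb3 (-1.41) and Spp1 (-2.52) were called. Spp1 had not been called in treated eyes with all libraries (-1.57, adjusted p = 0.0850 in limma). The list was not uniform. Isl1, a LIM-homeodomain factor that bipolar and amacrine cells also use, was at 26.7 and 33.0 FPKM in 3mo control and at 24.1 and 31.7 in 18mo control, and Jam2 was at 28.0 and 20.1 and at 38.7 and 34.1.

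After IOP the wider list held 0 called genes at 3 and at 18 months, and 2 of 22 called higher after 4 elevations. These were Prph and Spp1 (log2 fold change 1.396, adjusted p = 0.0173). At 3 months Spp1 was at 18.3 and 38.0 FPKM in untreated eyes and at 67.5 and 50.1 in treated eyes, and at 18 months at 4.35 and 1.41, then 9.69 and 37.6. Spp1 is also made by activated microglia and macrophages, and of 5 microglia markers 4 were called higher after 4 elevations (Tmem119 having passed the filter only through the treated libraries), their summed level being 5.41 to 6.26 FPKM in controls and 50.7 to 54.6 in 4xIOP. Their part in the Spp1 values was not tested.

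Genes of the axon injury response, such as the stress factors Atf3 and Jun, rise in ganglion cells after damage to their axons. Of 16 genes listed, 13 were tested in the single-IOP table, and 0 were called after a single elevation at either age. Of all genes 0.568% were called higher at 3 months and 0.117% at 18 months. The median log2 fold change of the list was 0.52 and 0.70 at these ages, against 0.13 and 0.09 over all tested genes. That median includes Sprr1a, whose limit is given below. Atf3 was at 2.25 and 3.28 FPKM in the 3mo controls and at 9.98 and 7.19 after IOP (log2 fold change 1.48, adjusted p = 0.132). At 18 months Atf3 was at 14.5 and 11.9 FPKM in controls and at 29.7 and 59.9 after IOP (1.64, adjusted p = 0.117). Sprr1a, a growth-associated gene of injured neurons, was at 0.061 FPKM or less in the 4 single-IOP controls, at 0.609 and 0.366 in 3mo IOP and at 1.20 and 5.03 in 18mo IOP. It passed the filter on low values only through the 18mo IOP libraries, so its fold change is not given. After 4 elevations 1 of 10 tested genes was called higher, Atf3 (2.27, adjusted p = 2.42e-05), where 5.45% of all genes were called higher.

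With age the injury list went both ways. In untreated eyes 3 of 13 were called higher and 3 lower. Jun rose from 5.57 and 3.28 FPKM in 3mo control to 89.5 and 49.4 in 18mo control (log2 fold change 3.81, adjusted p = 0.00265), and Atf3 rose by 2.08 (adjusted p = 0.00569). Gap43, a protein of growing axons, fell by 2.21 on the log2 scale (adjusted p = 0.00484). The other lower genes, Chac1 and Gal, passed the filter only through the 3-month libraries. In treated eyes 4 were called higher and 3 lower. Sprr1a is among the 4, but it was tested only through 18mo IOP, the higher group of this comparison, so its call carries no weight. Without 18mo control 1 the calls in untreated eyes were 2 higher (Jun and Atf3) and 1 lower (Gap43), and without 18mo IOP 2 those in treated eyes were 3 and 2. Jun and Atf3 are immediate early genes that many retinal cell types can express, and the cell of origin was not measured.

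Markers of other retinal cells moved with age as well. All 5 bipolar cell markers were higher in 18mo control without overlap, as were 45.7% of all genes, and 4 were called, with a summed level of 126 to 131 FPKM in 3mo control and 263 to 332 in 18mo control. Of 5 markers of Müller glia, the supporting glia that span the retina, 3 were called higher (490 to 597 FPKM in sum at 3 months and 1068 to 1356 at 18 months). All 3 endothelial markers were called higher, from 1.54 to 2.21 FPKM in sum to 18.4 to 19.3. Of 6 rod markers 1 was called lower, Sag, and the summed level was 20390 to 23310 FPKM at 3 months and 15060 to 16860 at 18 months. Of the pigment epithelium genes Rpe65 and Lrat were called lower (-4.51 and -2.59), Rpe65 from 17.6 and 18.2 FPKM to 0.462 and 0.176. Of 5 microglia markers 3 were called higher (Csf1r, Cx3cr1 and C1qa), with sums of 9.22 to 13.1 FPKM at 3 months and 36.6 to 40.4 at 18 months, while 1 of 5 cone markers was called higher (Opn1sw) and, of 3 tested astrocyte markers, Aldh1l1 was called higher and S100b lower. Rpe65 and Lrat passed the filter only through the 3-month libraries, and Cx3cr1 and the endothelial gene Cdh5 only through the 18-month ones. Without 18mo control 1 the 3 endothelial, 3 microglia and 2 pigment epithelium markers were again called, while bipolar calls were 3, Müller calls 1 (Dkk3), and Sag, Opn1sw and S100b missed the threshold. Because FPKM values share a total, the part of these shifts in the values of the ganglion cell genes was not tested.

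Amacrine and horizontal cells, the interneurons that share the inner retina with ganglion cells, followed them within the 18mo libraries. Gad1, the GABA-synthesising enzyme of amacrine cells, was at only 9.70 FPKM in library 1 of 18mo control and 2.23 in 18mo IOP 2, against 26.0 in 18mo control 2 and 27.3 in 18mo IOP 1. In the 4 libraries from 3-month-old animals Gad1 lay between 21.9 and 24.1. Calb1, which marks horizontal cells, was likewise at 3.18 and 1.70 against 10.4 and 11.7 FPKM. Only 1 of 7 amacrine markers, Chat of the cholinergic starburst cells, was called lower with age in untreated eyes and 0 of 2 tested horizontal markers. Chat passed the filter only through the 3-month libraries (means of 1.69 FPKM at 3 months and 0.247 at 18 months), and without 18mo control 1 it was not called.

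**Figure D4:**
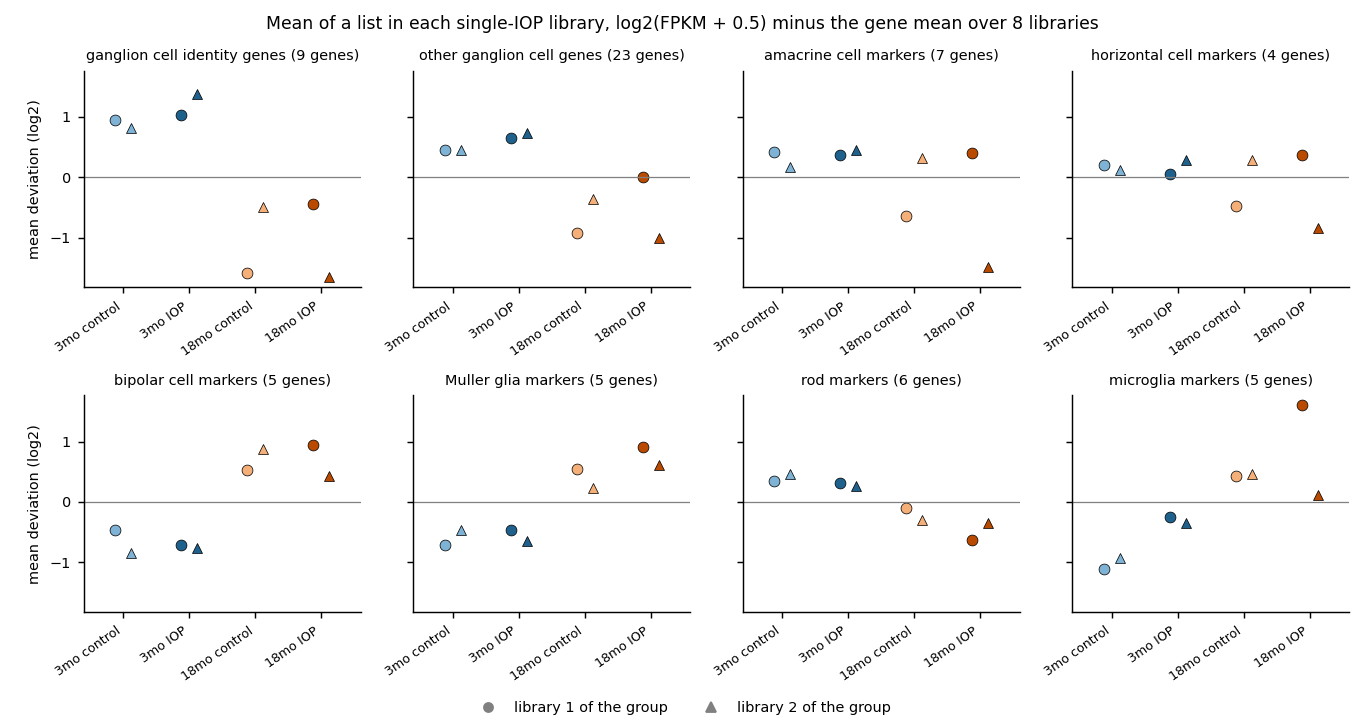
Mean of 8 gene lists (panels) in each single-IOP library (groups on the horizontal axis; circles and triangles are libraries 1 and 2), as log2(FPKM + 0.5) minus each gene's mean over the 8 libraries. The 9 identity genes lie between 0.81 and 1.38 at 3 months and between -1.66 and -0.44 at 18 months, and the low 18mo control 1 and 18mo IOP 2 are low for amacrine and horizontal markers also.

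Of the glial markers, Gfap alone was called after a single elevation, at each age, whereas 0 of the 9 genes were. The tally at each age was 1 of 3 tested astrocyte markers, 0 of 5 Müller glia markers and 0 of 5 microglia markers. Gfap, the filament protein of astrocytes and of stressed Müller glia, was called higher after IOP at 3 months (log2 fold change 3.44, adjusted p = 0.0271), at 18 months (3.37, adjusted p = 0.0443) and after 4 elevations (3.76, adjusted p = 6.03e-07). Its level was 2.13 and 2.10 FPKM in the 3mo controls against 25.0 and 31.3 after IOP, 4.87 and 4.39 against 31.4 and 87.5 at 18 months, and 2.14 and 2.69 against 46.1 and 32.7 in the repeated-IOP table, with no overlap in any. The call was lost in 5 of 15 alternative settings at 3 months, among them the leaving out of 3mo control 1 or of either 3mo IOP library, and in 8 of 15 at 18 months, among them the leaving out of either 18mo control, while the log2 fold change stayed between 3.22 and 3.68 and between 2.64 and 4.10. Of 5 cone markers 3 were called lower after 4 elevations (Arr3, Gnat2 and Opn1mw).

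Markers of neighbouring tissues were read as well. The myelin genes Mog and Mag, which mark oligodendrocytes of the nerve behind the eye, were at or near 0 (at most 0.028 and 0.117 FPKM in the 12 libraries), whereas the 5 oligodendrocyte markers summed to 3.34 to 4.41 FPKM at 3 months and 6.60 to 8.37 at 18 months, most of it Mbp. Mbp was called higher with age in untreated eyes (log2 fold change 1.14, adjusted p = 0.00761) and in treated eyes (1.10, adjusted p = 0.00907). Blood genes varied between libraries of a group, with haemoglobin Hbb-bs at 7.67 and 143 FPKM in 3mo control and at 69.7 and 204 in 18mo control. The 4 lens markers summed to 29.9 to 73.3 FPKM in 4xIOP against 0.265 to 2.53 in its controls, in a comparison in which none of the 9 genes was called. Cryaa was called higher (log2 fold change 4.12, adjusted p = 4.31e-05). The calls of Cryba1, Crygs and Mip are not given, since these passed the filter only through the treated libraries.

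Across the 8 single-IOP libraries, the genes whose log2 values most resembled the mean profile of the 9 identity genes were Cplx1 (Pearson's r = 0.997), Chat (0.993), Rbpms2 (0.992), Trarg1 (0.990) and Slc35f4 (0.990). These values describe 8 libraries in 4 groups, and the median r over all tested genes was -0.225. Slc35f4, at 0.448 FPKM or less in every 18mo library, passed the filter only through the 3-month libraries, as did Chat. Cplx1, which encodes complexin 1, a regulator of vesicle release, was at 19.4 and 14.8 FPKM in the 3mo controls, 21.2 and 29.2 in 3mo IOP, 2.73 and 6.10 in 18mo control, and 6.36 and 2.36 in 18mo IOP. Within the 18mo libraries its order was that of Slc17a6, with 18mo control 1 and 18mo IOP 2 lowest.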

How the data were processed

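The authors extracted RNA from fresh retinas in TRIzol and sequenced stranded libraries enriched for poly(A). Per the labels, reads were mapped to mm10 with STAR 2.7.8a and counted with HOMER, and the deposited values are FPKM of a single transcript per gene, normalised in each library to its own mapped tags. The notes of the submitters also name DESeq2 for their tests, and none of those results were used. The 2 tables were made separately and were fitted separately. Replicates were not pooled.

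From these values, log2(FPKM + 0.5) was modelled with limma 3.58.1 under R 4.3.3 (lmFit, then eBayes with an intensity trend) for the genes averaging 0.5 FPKM or more in a table (13731 and 13718). The single-IOP table entered with its 8 libraries in 4 groups (4 residual and 4.12 prior degrees of freedom), and the 4 repeated-IOP libraries alone (2 and 10.6). Calls needed adjusted p (Benjamini-Hochberg, over all tested genes) no higher than 0.05 and a difference of 1 or more on the log2 scale, and for the interaction the adjusted p alone. Fold changes on this scale understate the change of low genes. Because FPKM times transcript length gives whole reads per tag, depth and reads were recovered (100.0% of the values checked, in transcripts of up to 4000 bases, came within 0.15 of a whole read). The limit of measurement was set at 3 reads and covers counting error only.

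The 9 genes and the lists of paralogs, ganglion cell, injury and marker genes were chosen with earlier results of these data known. Of each other list, the genes named are the called ones (4 of smallest p where more were called, up to 3 of smallest p where none was), and Isl1, Jam2, Sncb, Gad1, Calb1, Mog, Mag, Mbp and Hbb-bs were named after their values were seen. A result for 1 paralog is not reported here. The nearest patterns are the 5 genes of highest Pearson's r. Promoter sequences were read from RefSeq on GRCm38.p6, and gene overlaps from GENCODE M21. The alternatives were pseudocounts of 0.1 and 1, no filter, a filter at a mean of 2 FPKM, size factors by the median of ratios, removal of the trend with transcript length (spline, 5 degrees of freedom), voom on the recovered reads, a replicate block, only the 2 groups compared, the adjusted p alone, and each library left out in turn. The list calls without a low 18mo library were added after the data were seen.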

Additional observations from a re-analysis of the deposited data

How the results depend on the processing

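The lower level of all 9 ganglion cell genes at 18 months kept its direction, in untreated and in treated eyes, under all alternatives run, and the number of called genes did not. Without a filter on low values 3 of 9 genes were called lower in untreated and 5 in treated eyes, and the cause was not tested. By gene, Rbpms, Nefh and Thy1 lost their call in untreated eyes without a filter, as did Nefh with a pseudocount of 1 and with only the 2 groups compared, and Thy1 lost it in treated eyes without a filter. Pou4f2, tested only through the 3-month libraries, gained a call in untreated eyes with the length trend removed (log2 fold change -1.33, limma adjusted p = 0.0376). Leaving out each library in turn gave from 2 (without 18mo control 1) to 4 in untreated eyes and from 2 (without either 3mo IOP library) to 8 in treated eyes. Fewer libraries enter these fits, and a group left with a single library was assumed to vary like the others. The median log2 fold change in treated eyes was -2.40 with a pseudocount of 0.1, -2.49 over the 7 genes that passed a filter at 2 FPKM and -2.74 with voom, the pseudocount and the filter changing how far genes of low level count.

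After IOP no alternative called any of the 9 genes at either age or after 4 elevations, and their small differences turned sign easily. With median-of-ratios size factors the log2 fold change after IOP at 3 months was -0.16 for Nefl and -0.10 for Sncg, and that of Pou4f1 after 4 elevations was -0.035. With the length trend removed it was -0.12 for Nefl and -0.20 for Sncg at 3 months, -0.038 for Thy1 at 18 months, and -0.080 for Pou4f1, -0.044 for Pou4f2 and -0.14 for Sncg after 4 elevations. Leaving out each library in turn moved 5 genes across 0 at 3 months, Nefh from -0.037 to 0.79, Nefl from -0.16 to 0.25, Pou4f2 from -0.0006 to 0.44, Slc17a6 from -0.28 to 0.14 and Sncg from -0.67 to 0.89. At 18 months it moved 8 genes, Nefl from -0.81 to 0.42, Nefm from -1.22 to 0.31, Pou4f1 from -0.79 to 0.58, Pou4f2 from -0.68 to 0.56, Rbpms from -0.21 to 0.76, Slc17a6 from -1.21 to 0.80, Sncg from -1.25 to 0.90 and Thy1 from -0.46 to 0.75, and the median of all 9 from -0.79 to 0.58. After 4 elevations it moved all 9 genes, Nefh from -0.73 to 0.17, Nefl from -0.61 to 0.37, Nefm from -0.52 to 0.36, Pou4f1 from -0.22 to 0.35, Pou4f2 from -0.23 to 0.47, Rbpms from -0.12 to 0.98, Slc17a6 from -0.22 to 0.81, Sncg from -0.58 to 0.93 and Thy1 from -0.39 to 0.29, and their median from -0.39 to 0.37. The median interaction estimate ranged from -0.90 to 0.35.

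The replicate block for same-numbered libraries left 6 genes called lower in untreated eyes and 6 in treated eyes, where Pou4f1 (limma, adjusted p = 0.0520) and Pou4f2 (adjusted p = 0.0614) then missed the threshold. The labels do not say that the numbers mark shared animals, and the numbers were not used as pairs. The deviations of same-numbered libraries from their group means correlated at -0.28, -0.53 and -0.29 over all tested genes. In a pairing of library 1 with library 2, chosen after seeing the data, the genes called higher and lower after IOP were 298 and 14 at 3 months (78 and 1 without a block), 298 and 8 at 18 months (16 and 1) and 780 and 114 after 4 elevations (748 and 95). Over all genes, the 1595 called higher and 1590 lower with age in untreated eyes became 3667 and 2630 by the adjusted p alone, the higher genes 1008 with the length trend removed and 1059 with size factors. In treated eyes 1407 and 1593 became 3154 and 2692 by the adjusted p alone, and the lower genes 1019 without the length trend. After IOP at 3 months the 78 higher genes were 9 without a filter, 20 with size factors or the replicate block and 3 with voom. At 18 months the 16 were 0 with a pseudocount of 0.1, size factors, voom, the replicate block or only the 2 groups compared, 1 without a filter and 8 with the filter at 2 FPKM. After 4 elevations the 748 higher genes were 405 with that filter, and the 95 lower ones 151 by the adjusted p alone or without the length trend and 56 without a filter. The interaction passed for 2 genes without a filter. Leaving out each library gave 610 to 2624 higher and 566 to 2093 lower genes with age in untreated eyes, 401 to 1371 and 267 to 1440 in treated eyes, and higher genes numbering 0 to 253 after IOP at 3 months and 0 to 140 at 18 months. Depth limits Pou4f2 most, with 4 to 256 reads per library.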

Other observations

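Genes that mark single types of ganglion cells were read one by one, as values. Eomes, the factor of the intrinsically photosensitive cells, was at 1.32 and 0.734 FPKM in the 3mo controls, 0.993 and 1.16 in treated eyes of that age, 0.169 and 0.416 in the 18mo controls, and 0.389 and 0.065 in 18mo IOP. Opn4, which encodes the melanopsin of the same cells, was at 0.825 and 0.764 FPKM in the 3mo controls, 1.52 and 1.53 in treated eyes of that age, 0.345 and 0.342 in the 18mo controls, and 0.835 and 0.135 in 18mo IOP. Both passed the filter on low values only through the 3-month libraries, so their calls in treated eyes, counted in the wider list above, are not read further here. Isl2 was called lower with age in treated eyes (-1.18, adjusted p = 0.0155), its mean in 18mo IOP lying below 0.5 FPKM. Chrna6, an acetylcholine receptor subunit of ganglion cells, was likewise called lower there (-2.01, adjusted p = 0.0439). In untreated eyes neither was called (Isl2 -0.41, adjusted p = 0.262, and Chrna6 -1.81, adjusted p = 0.0575). Without 18mo IOP 2 neither was called in treated eyes (Isl2 -0.81 and Chrna6 -0.81). Mmp17 was at 1.21 and 0.657 FPKM in 3mo control and at 1.05 and 1.25 in 18mo control. The differences between these genes were not tested, and all 5 were named after their values were seen.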
